A study of Arabidopsis thaliana with 48 samples.

Results

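Large polysomes of herbicide-treated wild-type Arabidopsis seedlings were set against small polysomes of the same sucrose gradients. The comparison holds 6 of the 48 arrays of the series, 3 of the large-polysome pool (LP) and 3 of the small-polysome pool (SP), chosen by genotype, treatment and fraction labels. LP and SP arrays with the same replicate number come from 1 gradient, so each gradient gives 1 difference, LP minus SP, on the log2 scale after each array was centred on its median.

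All plants of the series were 10-day seedlings of the line Landsberg erecta, of which the aerial part was frozen. The groups used here were wild type after herbicide, wild type after mock treatment, gcn2 after herbicide and gcn2 after mock treatment, with 3 gradients each. The herbicide was chlorsulfuron (spelled chlorosufuron in the labels), and mock plants received the solvent alone. Seedlings were submerged for 1 min, 2 h after the light came on, and kept for a further 2 h. The labelled treatment was 0.5 mM, while the labelled preparation, a 10000-fold dilution of a 5 mM stock made up in 20% acetone, gives a far lower dose. Each gradient ran from 30% to 50% sucrose, from which 3 pools of 4 fractions were made, non-polysomal RNA (NP) at the top, then SP, then LP at the bottom. The labels do not say which gcn2 allele was used or whether the replicates were separate cultures, so the p-values below measure only the spread between these samples.

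Ribosomes that translate 1 mRNA at the same time form a polysome, and heavier polysomes sediment further into a sucrose gradient. The number of ribosomes that an mRNA can carry is bounded by the length of its reading frame, and also depends on how often translation starts and how fast ribosomes move. Chlorsulfuron inhibits acetolactate synthase, the first enzyme shared by the synthesis of the branched-chain amino acids, and GCN2 is the protein kinase that phosphorylates the initiation factor eIF2α when uncharged tRNA accumulates. The array values are relative within each array: LP minus SP states which mRNAs make up more or less of the large-polysome pool, and says nothing of the total amount of RNA in that pool. In such samples of whole shoots, fewer cells of a type and less RNA per cell cannot be told apart.

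Before centring, the 6 arrays had medians of 6.17 to 6.25 on the deposited log2 scale. Replicates of a fraction correlated at 0.989 to 0.994 across probe sets. Of the 22810 probe sets, 64 controls were left out, and 13513 of the 22746 tested have 1 named gene here. The 7 light-harvesting and photosystem genes measured, which mark green tissue, had a median level of 12.91 in LP and 12.84 in SP. Of the 4 root markers, EXPA7, EXPA18 and AT5G17820 stayed between 2.81 and 4.10 in the 6 arrays, while PYK10 reached 9.70 to 10.67.

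The wild-type gradients of replicate 3 go against their treatment labels. Over 2690 probe sets that responded to herbicide in gcn2 total RNA, each signed by that response, herbicide minus mock in wild-type LP was 0.36 in replicate 1 and 0.42 in replicate 2 but -0.31 in replicate 3. The same values in SP were 0.43, 0.43 and -0.38, whereas in total RNA they were 0.42, 0.42 and 0.41. AT2G41730, among the most strongly herbicide-induced genes of these data, gives an example. Its LP level was 10.89, 10.83 and 7.98 in the gradients labelled herbicide and 7.21, 7.45 and 11.27 in those labelled mock. In total RNA it was 11.67, 11.57 and 11.67 after herbicide. For 8 herbicide-induced genes in SP and LP, all 16 differences were above 0 in replicates 1 and 2, and 0 of 16 were in replicate 3. The labels were kept, "herbicide" below means the gradients so labelled, and counts are given with and without replicate 3.

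**Figure D1:**
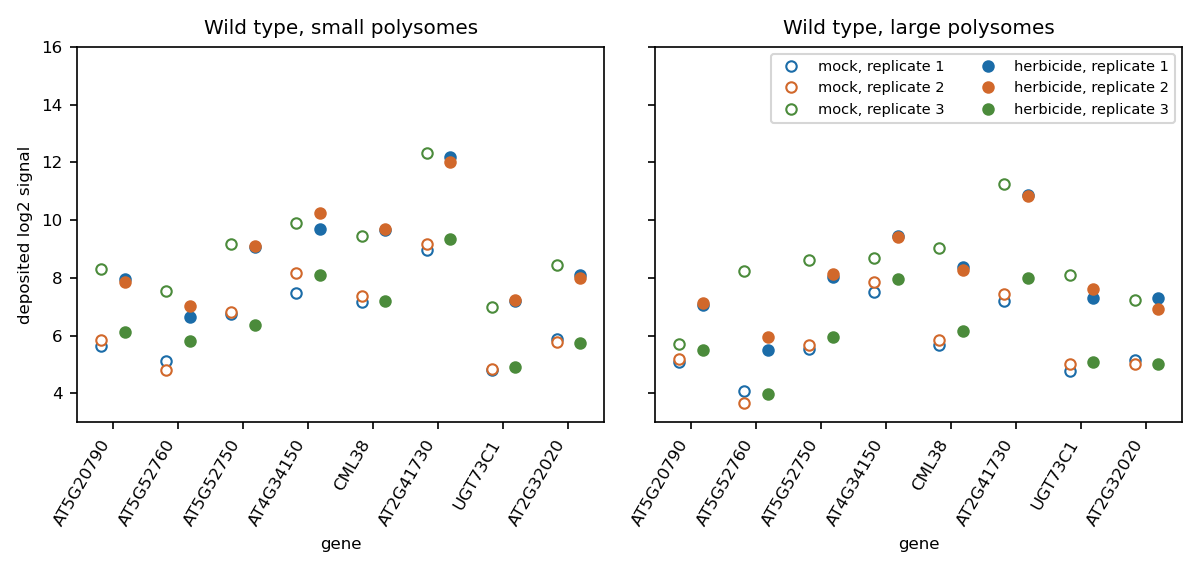
Deposited log2 signal (vertical axis) of 8 herbicide-induced genes (horizontal axis) in wild-type small polysomes (left) and large polysomes (right); each point is 1 array, open for mock and filled for herbicide labels, coloured by replicate number. In replicate 3 the open points lie above the filled ones, the reverse of replicates 1 and 2.

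Many mRNAs were split unevenly between the pools. In limma's test of LP minus SP over the 3 gradients, with Benjamini-Hochberg adjustment over all 22746 probe sets, 8659 (38.1%) passed an adjusted p of 0.05. Of these, 4121 (18.1%) were higher in LP and 4538 (20%) were lower. Without a test, 913 probe sets (4.01%) were at least 1.5-fold higher in LP in each of the 3 gradients and 1577 (6.93%) at least 1.5-fold lower. The lower side reached further: the extreme values were -2.22 and 1.68 on the log2 scale. The count without replicate 3 was 7615, of which 7019 were among the 8659. The spread assumed decides the count, which was 4364 when all 12 gradients of the series set the spread and 4809 when LP and SP were treated as unpaired groups.

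**Figure D2:**
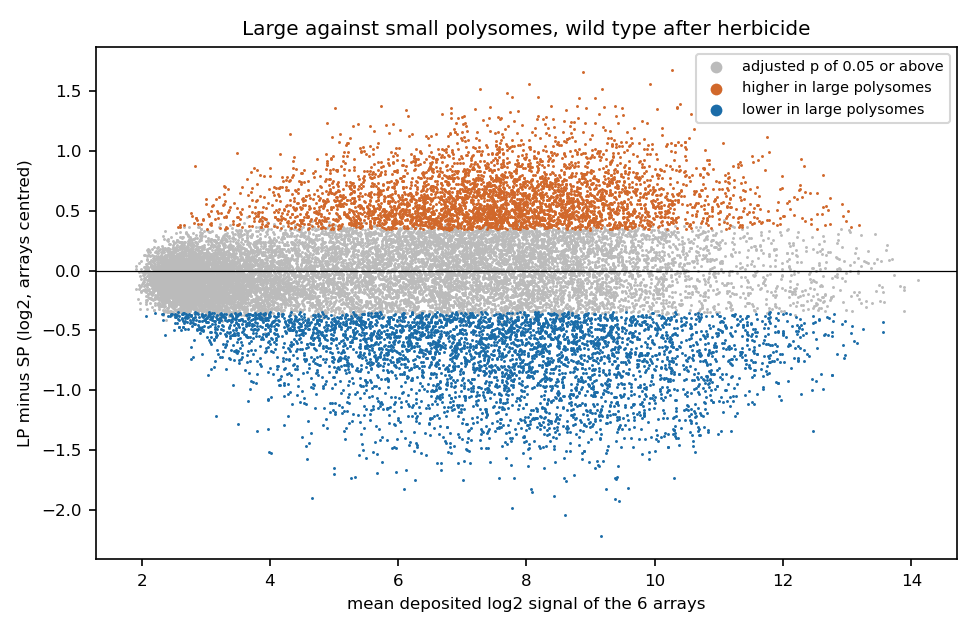
LP minus SP (log2, arrays centred, mean of 3 gradients; vertical axis) against the mean deposited log2 signal of the 6 arrays (horizontal axis); each point is a probe set, coloured where adjusted p is under 0.05. Calls lie on both sides at most levels, no called difference is smaller than 0.34, and the lower side extends to -2.22.

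Among named genes with non-overlapping groups, the 10 largest excesses in LP were 1.28 to 1.56 and the 10 largest deficits were -1.82 to -2.22. Levels of AT1G04800 were 11.03, 10.51 and 10.66 in LP and 8.89, 9.22 and 9.24 in SP. The lowest LP array thus lay above the highest SP array, and LP minus SP was 1.56 ± 0.16 (SE, limma's adjusted p = 2.1e-07). TPLATE, a subunit of an adaptor complex for clathrin-mediated endocytosis at the plasma membrane and cell plate, had 9.69, 9.83 and 9.38 in LP and 8.55, 7.93 and 8.20 in SP. All LP values exceeded all SP values, by 1.36 ± 0.15 (adjusted p = 5.51e-07). The myosin gene XI-I, a motor that moves along actin, measured 6.66, 6.82 and 7.01 in LP against 5.27, 5.21 and 5.82 in SP. Its groups did not overlap either, and the difference was 1.34 ± 0.14 (adjusted p = 2.67e-07). CFM3A, an RNA-binding protein of the CRM family that takes part in splicing of plastid introns, had a difference of 1.36. RH39, a DEAD-box RNA helicase of the plastid, had 1.28. The kinesin gene ZCF125 had 1.29, and AT1G49870, AT3G08930, AT1G57600 and AT5G62890 had 1.38, 1.34, 1.29 and 1.29.

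On the other side, AT3G02480 measured 8.79, 7.53 and 7.94 in LP and 10.28, 10.08 and 10.40 in SP. Every SP array lay above every LP array, and the difference was -2.22 ± 0.17 (limma's adjusted p = 2e-08), which is 4.65-fold. AT2G32190 had 6.99, 6.83 and 6.61 in LP against 8.86, 8.79 and 8.58 in SP. This is the most even of the large deficits, -1.91, -2.02 and -2.03 in the 3 gradients. NTL, annotated as similar to the nuclear transport factor NTF2, had a difference of -1.83 ± 0.14. The other 7 were AT5G04080, AT2G45860, AT5G40960, AT1G56060, AT1G62045, AT5G11970 and AT3G48570, between -1.82 and -1.93. None of these 20 calls was lost when replicate 3 was left out: the excesses were then 1.15 to 1.66 and the deficits -1.62 to -2.07.

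**Figure D3:**
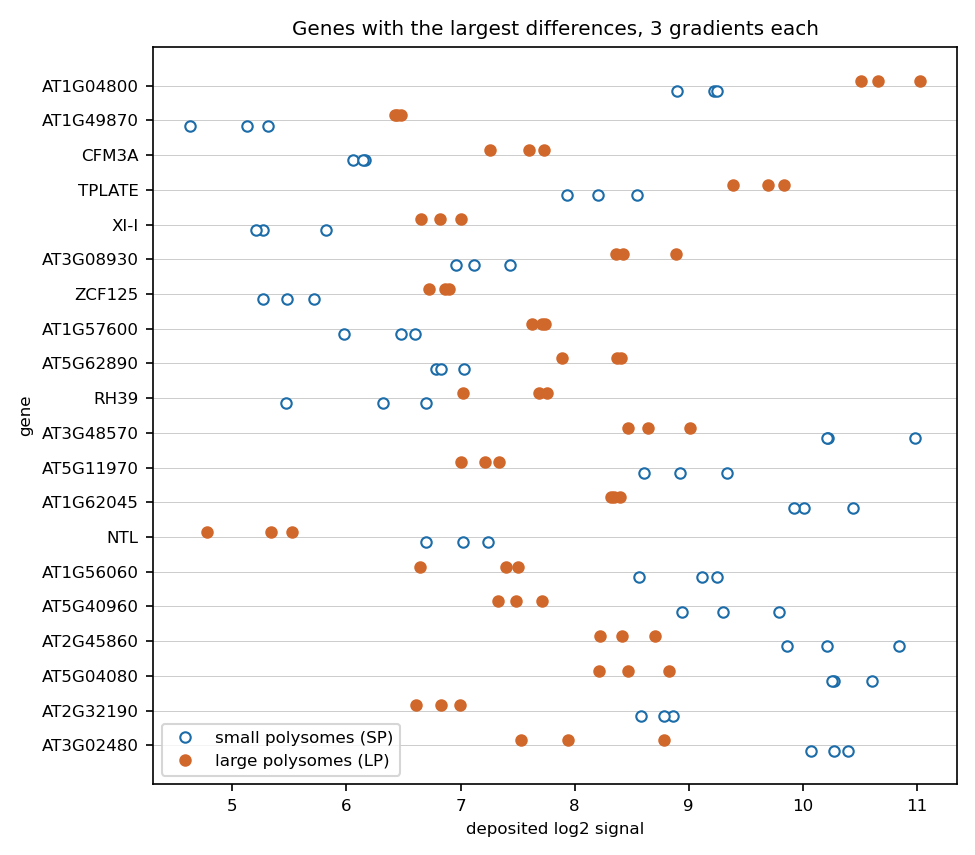
Deposited log2 signal (horizontal axis) of the 20 named genes with the largest differences (vertical axis) in the 3 small-polysome arrays (open blue) and the 3 large-polysome arrays (filled orange). The 2 sets of points do not overlap for any of the 20 genes.

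The genes at the 2 ends differed in size. The 10 deficits came from genes spanning 653 to 1455 bases, with a median of 919, and the 10 excesses from genes with a median span of 4142.5 bases. The exception was AT1G04800, at 1027 bases the shortest gene among the excesses. Gene span here is the length of the gene in the RefSeq annotation TAIR10.1, introns included, and stands in for the length of the reading frame, which was not analysed here. Over 13286 genes with a span, the Spearman correlation between span and LP minus SP was 0.45 and Pearson's r with the log of the span was 0.41. The line took up 16.4% of the variance across genes, which share arrays and are not independent replicates.

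LP minus SP increased by 0.20, 0.21 and 0.19 per doubling of gene span in gradients 1, 2 and 3, a mean of 0.20 ± 0.006 (SD, n = 3). For the 1767 genes under 1000 bases the median was -0.21 and for 719 genes of 5000 bases or more it was 0.35. Genes from 1000 up to 2000 bases had a median of -0.21, as low as the shortest class, and those from 3000 up to 5000 bases had 0.13. The share of probe sets called higher in LP went from 1.02% in the shortest class to 48.1% in the longest. The share called lower went from 30.4% to 2.09%, with its highest value, 34.2%, in the class from 1000 up to 2000 bases. The slope depends on how bright the probe sets are: it was 0.33 when the dimmest 25% of probe sets were left out, and 0.03 within the dim ones, whose LP minus SP varied little.

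Among called named genes with non-overlapping groups and a level above the arrays' lower quartile, exceptions to the size trend were few. Under 1500 bases, 34 such probe sets were higher in LP and 1006 lower. Over 4000 bases, 518 were higher and 32 lower. The short genes with the largest excess were AT1G04800, then the plastid gene psbD (1062 bases, 0.94), AT1G23840 (0.86) and M17 (0.80). Among long genes, AT5G48940 (4197 bases, -0.96), AT3G46490 (-0.83) and AT5G59080 (-0.81) had the largest deficits.

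**Figure D4:**
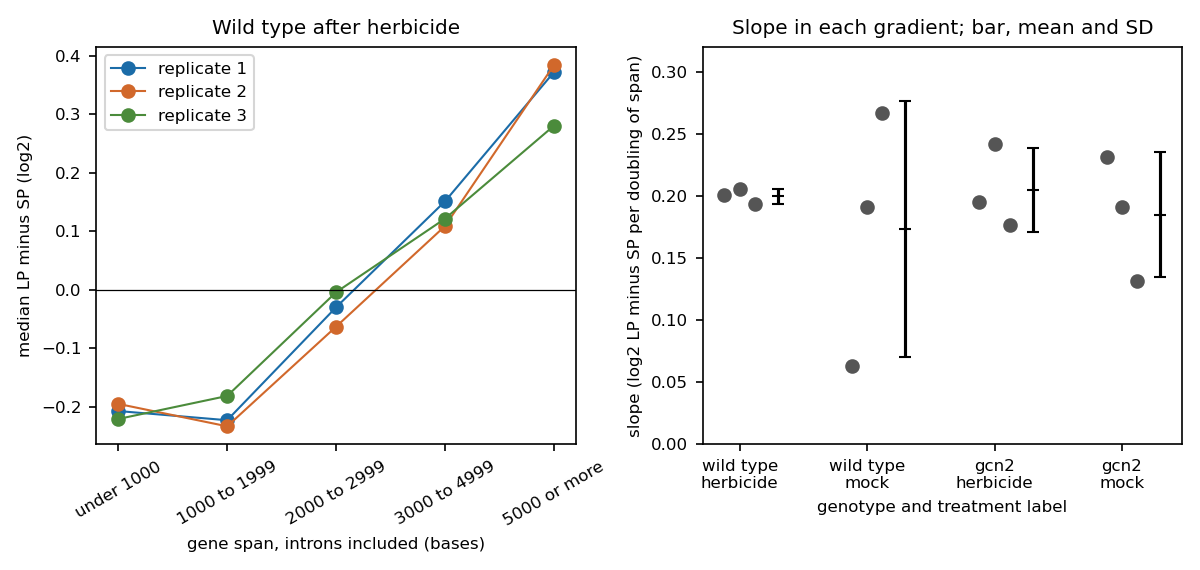
Left, median LP minus SP (log2, vertical axis) of wild-type herbicide in 5 classes of gene span in bases (horizontal axis), 1 line per gradient. Right, slope per doubling of span in each of 12 gradients by group, with the mean and SD as a bar; the 3 wild-type herbicide slopes lie between 0.19 and 0.21, within the range of the other groups.

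The list counts below stand against 18.1% higher in LP and 20% lower among all tested probe sets. Among probe sets with 1 named gene, from which the lists were drawn, 13.9% were higher and 21.1% lower. Of all probe sets, 33.5% were called in either direction without replicate 3, 21.1% without pairing and 19.2% with the spread of all 12 gradients. The ribosomal protein genes, which encode the subunits of the cytosolic ribosome, leaned to the small polysomes. Of 83 genes for the 60S subunit, 52 were lower in LP (20% of all tested probe sets were) and 2 were higher (18.1%), with a median of -0.48 against -0.04 over all tested probe sets. Of 49 genes for the 40S subunit, 28 were lower and 0 higher, with a median of -0.42. The largest deficits were -1.62 for AT3G02190 (LP 6.91, 7.04 and 6.99, SP 8.28, 8.43 and 8.94) and -1.40 for AT2G45710 (LP 9.71, 9.66 and 9.72, SP 10.94, 10.93 and 11.26). In both genes all SP values exceeded all LP values. The 2 higher ones were AT3G09630 (0.42) and AT5G02870 (0.42), whose spans of 2056 and 2126 bases are above the list's median of 1417. Neither passed without replicate 2 (adjusted p = 0.0734 and 0.0531) or without replicate 3 (0.076 and 0.228). Without replicate 3 the lower calls numbered 42 for 60S and 24 for 40S, and with the spread of all 12 gradients 24 and 11. Ribosomal protein genes are small gene families of near-identical copies, so single probe sets may read several copies. Relative to the line through span, the list medians were -0.26 and -0.24. Here and in the lists below, that line was fitted over all genes and is flatter than the line without dim probe sets. For bright lists of short or long genes it may remove too little, so part of such a value may still go with span.

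Core histone genes encode the protein spool of the nucleosome, and 10 of 40 listed were measured. Of these, 8 (80%) were lower in LP, against 20% of all tested probe sets, with a median of -0.71. The list has a median span of 853 bases. Relative to the span line its median was -0.22, and 8 of the 9 members with a span lay below the line. For such bright, short genes this line over all genes may remove too little. HTB1, for histone H2B, measured 8.61, 8.27 and 8.53 in LP and 9.40, 9.48 and 9.41 in SP, with no overlap and a difference of -1.01. HTB4, at -0.25 with an adjusted p of 0.178 in limma's test, did not pass. The lower calls were 8 without replicate 3, 6 without replicate 2, where HTB2 was -0.38, and 5 with the spread of all 12 gradients.

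All 9 measured ATG8 genes, whose ubiquitin-like products are attached to autophagosome membranes, were lower in LP. ATG8F had the smallest deficit, -0.55, and APG8H the largest, a 2.01-fold lower level in LP, and the median was -0.90. APG8H measured 9.68, 9.50 and 9.66 in LP and 10.63, 10.44 and 10.63 in SP, with differences from -0.98 to -1.03 in the 3 gradients. Its groups did not overlap, and 7 of the 9 members had every SP array above every LP array, as had 19.3% of all probe sets. ATG8H and APG8A overlapped. The spans of the list have a median of 1790 bases, in a class whose own median is -0.21, and the list's median relative to the span line was -0.74. All 9 passed without replicate 3, 8 without replicate 2 (ATG8H was then -0.47, limma's adjusted p = 0.0507) and 7 with the spread of all 12 gradients.

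The CC-type glutaredoxins, small plant-specific oxidoreductases some of which bind TGA transcription factors, gave 17 lower calls of 17 genes, with a median of -0.91. AT1G03020 had the largest deficit, with 4.08, 3.98 and 4.53 in LP and 5.32, 5.47 and 6.60 in SP, or -1.65 ± 0.15. ROXY1, which acts in petal development, had the smallest, -0.46, and GRX480 had -0.59. The median was -0.52 in gradient 1, -1.13 in gradient 2 and -1.17 in gradient 3, so gradient 1 gave the smallest shift. Without replicate 3, 15 passed, all but ROXY1 (-0.36) and ROXY2 (-0.31), and without pairing 10. These are among the shortest genes of the lists, 486 to 1266 bases, and relative to the span line the median was -0.54.

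Messenger RNAs with conserved upstream reading frames, short frames in the leader at which ribosomes can stall, gave 6 lower and 1 higher call among 7 genes, with a median of -0.82. The bZIP transcription factor gene bZIP44 measured 6.83, 7.02 and 6.38 in LP and 7.88, 8.00 and 8.08 in SP. All SP arrays were higher, and the difference was -1.30 ± 0.15 (limma's adjusted p = 8.62e-07). BZIP53, of the same family, had -0.89. SAMDC, which encodes S-adenosylmethionine decarboxylase of polyamine synthesis, had 10.78, 11.14 and 10.62 in LP against 11.41, 11.66 and 11.54 in SP, with no overlap. Its difference was -0.74 at a span of 2676 bases, where the size class has a median of -0.03. AT5G50010, AT5G09460 and AT5G15950 had -0.91, -0.82 and -0.82. The exception was PMEAMT, a methyltransferase of phosphocholine synthesis, at 0.53, which did not pass without pairing (adjusted p = 0.112). The 6 lower calls held without replicate 3 and with the spread of all 12 gradients, and relative to the span line the list's median was -0.75.

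**Figure D5:**
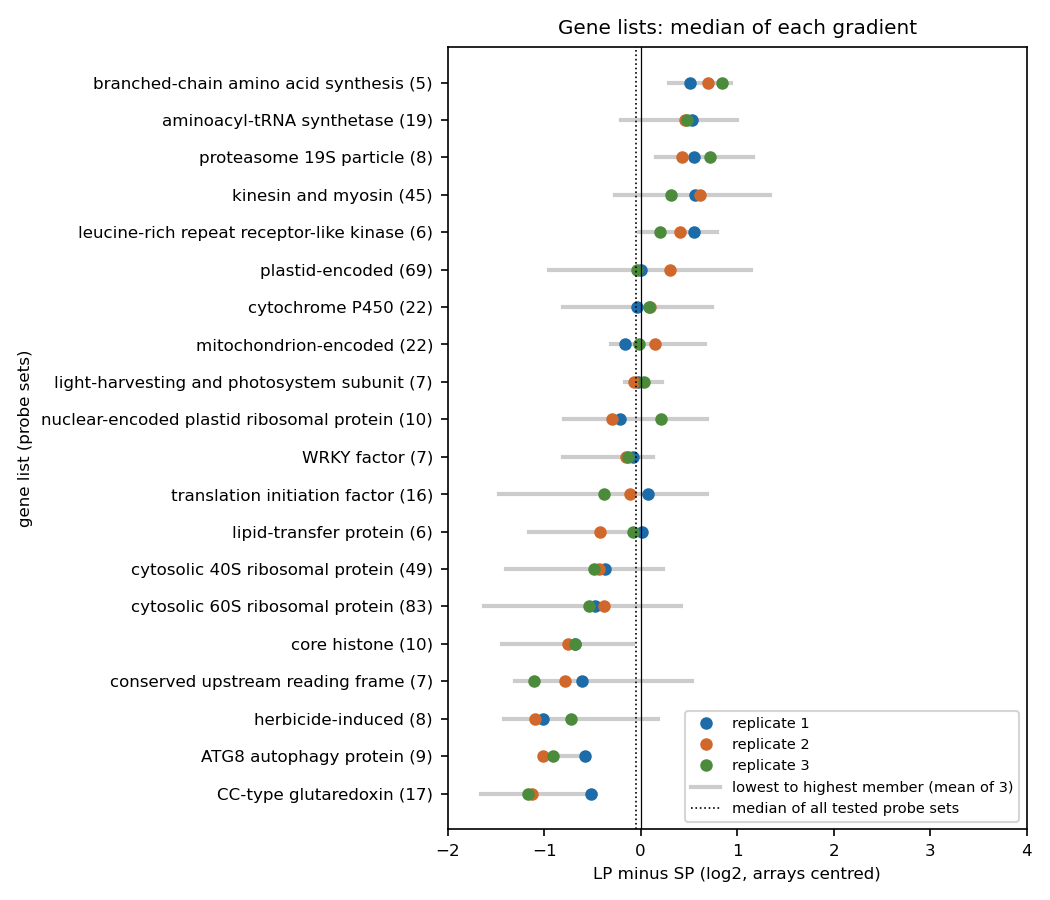
LP minus SP (log2, horizontal axis) of 20 gene lists with at least 3 measured members (vertical axis, number of probe sets in brackets); points are list medians in each of 3 gradients, grey bars run from the lowest to the highest member, and the dotted line is the median of all tested probe sets, -0.04. The glutaredoxin, ATG8, herbicide-induced and upstream-frame lists lie furthest to the left, and branched-chain synthesis, aminoacyl-tRNA synthetases and the 19S particle furthest to the right.

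Aminoacyl-tRNA synthetase genes, whose products charge tRNAs with amino acids, leaned to the large polysomes. Of 45 listed, 19 were measured. Of these, 12 (63.2%) were higher in LP, against 18.1% of all tested probe sets, and 0 lower. The median was 0.59, or 0.47 relative to the span line. AT3G62120 measured 9.67, 10.03 and 9.24 in LP and 8.55, 8.70 and 8.52 in SP, and AT5G26710 measured 9.94, 10.07 and 9.83 against 8.92, 8.93 and 8.88. Neither pair of groups overlapped, and the differences were 1.00 and 0.98. ALATS, for alanyl-tRNA, had 0.77. The 7 that did not pass lay between -0.21 and 0.22. The 12 calls were also 12 without replicate 3 and 10 with the spread of all 12 gradients.

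Of 20 loci listed for branched-chain amino acid synthesis, the pathway that the herbicide blocks, 5 were measured. Of these, 4 (80%) were higher in LP, against 18.1% of all tested probe sets, and 0 lower. The median was 0.68, or 0.53 relative to the span line. AT2G31810 measured 7.29, 7.89 and 7.70 in LP and 6.67, 7.12 and 6.87 in SP, with the groups apart and a difference of 0.68 ± 0.14. AT3G23940 had 0.94, AT3G58610 0.68 and the aminotransferase gene BCAT4 0.52, while ATBCAT-5 had 0.29 (limma's adjusted p = 0.114). Whether the listed aminotransferases act in this pathway was not tested. Without replicate 3 there were 3 calls, BCAT4 being 0.33 (adjusted p = 0.113), and with the spread of all 12 gradients 2.

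The 19S particle is the regulatory cap of the proteasome that takes up ubiquitinated proteins, and 8 of 27 listed genes were measured. Of these, 6 (75%) were higher in LP, against 18.1% of all tested probe sets, and 0 lower. The median was 0.54, or 0.57 relative to the span line. AT1G04810 had the largest difference, with 7.92, 8.34 and 8.22 in LP and 6.99, 6.91 and 6.94 in SP, or 1.16 ± 0.14. AT2G32730 followed with 0.93, while RPN12a had 0.26 and did not pass. Without replicate 3 there were 4 calls, and without pairing 3. The only gene of the 20S core measured had 0.04.

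Kinesin and myosin genes, which encode motors on microtubules and actin, span 2575 to 12516 bases. Of 45, 25 (55.6%) were higher in LP, against 18.1% of all tested probe sets, and 0 lower, with a median of 0.50. Relative to the span line the median was 0.24, and 13 of the 45 lay below the line. Besides XI-I and ZCF125, AT1G72250 (1.25) and AT3G44050 (1.22) had large differences. The list's median was 0.57, 0.62 and 0.31 in the 3 gradients, lowest in replicate 3, and 26 passed without that replicate. Among these long genes span and LP minus SP were not ordered together (Spearman correlation -0.06, 45 genes on the same arrays).

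Translation initiation factors were split. Of 16 genes, 5 were higher in LP and 6 lower, and the median of -0.13 describes neither group. AT1G54290 measured 7.59, 7.46 and 7.74 in LP and 8.77, 8.91 and 9.35 in SP, a difference of -1.46, and AT4G27130 had -0.88. In contrast AT2G40290 measured 9.88, 9.99 and 9.83 in LP and 9.08, 9.36 and 9.04 in SP, a difference of 0.69. EIF4A-2, an RNA helicase of the cap-binding complex, had 0.55. In all 4 genes the groups followed the sign of the difference in every gradient. The split followed gene span: the Spearman correlation was 0.76 over the 16 genes, 0.76, 0.88 and 0.71 in the single gradients, with spans of 1165 to 5847 bases. Without replicate 3 the counts were again 5 and 6, and the median was 0.02. Neither of 2 elongation factor genes passed.

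Plastid-encoded RNAs, which are translated on the plastid's own ribosomes, gave 11 higher and 9 lower calls among 69 genes, with a median of 0.12. These are 15.9% and 13.0% of the genes, against 18.1% higher and 20% lower among all tested probe sets. Among probe sets with 1 named gene the shares were 13.9% and 21.1%. The plastid share of higher calls thus lay between these 2 backgrounds, and the share of lower calls was below both. The psaA gene of photosystem I measured 5.41, 5.60 and 6.07 in LP and 4.50, 4.60 and 4.39 in SP, with no overlap and a difference of 1.15. For psbD of photosystem II the levels were 9.90, 9.13 and 10.20 in LP and 9.03, 8.14 and 9.08 in SP. Within each gradient LP was above SP, by 0.83, 0.93 and 1.06. The small photosystem II gene psbE had 7.86, 7.35 and 7.94 in LP and 8.80, 8.01 and 9.05 in SP, a difference of -0.95, and petG of the cytochrome complex had -0.66. The long genes psaB (0.60) and rpoC2 (0.65) were higher, and atpH (-0.47) was lower. Across the 69 genes the Spearman correlation with span was 0.46. These plastid counts depended on the scaling, with 24 higher and 6 lower after quantile normalization, and on the spread, with 4 higher and 1 lower from all 12 gradients. Without replicate 3 they were 10 and 7, without replicate 1 they were 13 and 4, and without replicate 2 they were 6 and 10.

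Of 22 probe sets for mitochondrion-encoded genes, 3 were higher in LP (nad4, cox1 and nad5) and 0 lower, with a median of 0.02 that was -0.05 without replicate 2 and -0.02 without replicate 3. None of the 3 passed without replicate 2, and 1 passed without replicate 3. The counts here and in the smaller lists that follow stand against 18.1% higher and 20% lower of all tested probe sets. Of probe sets with 1 named gene, 13.9% were higher and 21.1% lower. The 13.6% of mitochondrion-encoded probe sets that were higher is not above either background. Among 10 nuclear genes for plastid ribosomal proteins, AT5G24490 was higher (0.69) and 4 were lower, again 1 and 4 without replicate 3 but 1 and 2 without replicate 2. None of the 7 light-harvesting and photosystem genes passed, between -0.16 and 0.22. Of 22 cytochrome P450 genes, 6 were higher (CYP78A9, 0.74) and 2 lower (CYP71B24, -0.80), or 2 and 0 with the spread of all 12 gradients and again 6 and 2 without replicate 3. These are 27.3% higher and 9.09% lower. Of 42 listed leucine-rich repeat receptor kinases 6 were measured, and genes of this family outside the list were not counted. Of the 6, 3 were higher: the anther receptor EMS1 (0.79), GSO1 (0.61) and the brassinosteroid receptor BRL1 (0.64, but 0.44 and not passing without replicate 2). Without replicate 3 the count was again 3. Of 19 HSP70 and HSP90 chaperone genes listed, only 2 were measured. Both were higher (Hsp70-2, 0.81), and neither passed without pairing, while both passed without replicate 3. Of 8 small heat shock protein genes 3 were lower (AT1G54050, -0.75), and of 6 lipid-transfer protein genes 2 (AT5G01870, -1.15). Without replicate 3 the small heat shock list had 1 higher (AT1G52560, 0.47) and 4 lower, with AT5G51440 (-0.51) added, and the lipid-transfer list had 1 lower, AT2G18370 (-0.51) no longer passing. Of 7 WRKY factors only WRKY22 was called, at -0.80 in the same direction in each gradient, which is 14.3% of the list. Without replicate 3 the count was again 1, and without replicate 1 WRKY20 (-0.43) was also lower.

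The 8 genes that rose most with herbicide in wild-type total RNA, a list chosen on these data, were lower in LP in 7 cases and higher in 0, with a median of -0.89. AT2G41730 had 10.89, 10.83 and 7.98 in LP and 12.20, 12.02 and 9.36 in SP. Replicate 3 was low in both pools, so the groups overlapped, but LP lay below SP in every gradient, by -1.34, -1.26 and -1.44. Its probe set can also read related sequences. The calmodulin-like gene CML38 had 8.40, 8.26 and 6.18 in LP and 9.67, 9.68 and 7.21 in SP, and differences of -1.31, -1.48 and -1.09. AT5G52760 had -1.41, AT2G32020 -0.91, AT5G52750 -0.87 and AT5G20790 -0.80. AT4G34150, at -0.46, did not pass without replicate 2 (-0.24, limma's adjusted p = 0.376). UGT73C1, a UDP-glycosyltransferase gene, was the exception at 0.18 ± 0.14 (adjusted p = 0.343). Without replicate 3 the same count of 7 passed and the median was -1.02, and without pairing, where the low replicate 3 enters the spread, 1 passed. The spans have a median of 1141.5 bases, and relative to the span line the median was -0.60.

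The split between LP and SP was set beside the NP pool and total RNA with the same labels, over all 3 replicates. In replicate 3 the signed herbicide response was -0.295 in NP but 0.412 in total RNA. Gradient and total RNA of that replicate may thus not match in treatment, and the values were not computed without it. For the 4121 probe sets called higher in LP, the median level relative to total RNA was -0.54 in NP, -0.44 in SP and 0.17 in LP. For the 4538 called lower it was 0.46 in NP, 0.53 in SP and -0.15 in LP. The SP and NP pools thus lay close together for both sets. The SP and LP values chose these sets, so their medians are a description.

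The LP minus SP differences were then compared with those of mock-treated wild type. No probe set passed limma's test of the difference between herbicide and mock over 12 gradients (smallest adjusted p = 0.594), and 1878 were at an unadjusted p under 0.05, or 8.26% of those tested. Without both wild-type gradients of replicate 3, again 0 passed and 2710 were under 0.05. LP minus SP had an SD across probe sets of 0.67, 0.52 and 0.98 in mock and 0.49, 0.52 and 0.53 after herbicide. This SD also holds real differences between mRNAs. The mock gradients agreed less with each other: limma's array weights, lower for gradients that depart more from their group mean, were 0.33, 0.58 and 0.14. After herbicide these weights were 1.68, 2.16 and 1.29. The mock gradients alone gave 0 calls in the paired test, with 3921 probe sets under 0.05. The 3 genes with the smallest p were AT5G44330, AT2G34740 and AT3G50190, at -0.41, -0.32 and -0.52 after herbicide and 1.17, 0.71 and 0.56 in mock. All 3 are dim, with herbicide levels of at most 3.90 in SP and LP. Of the probe sets called higher in LP after herbicide, 65.5% were above 0 in all 3 mock gradients, against 30.9% of all tested. Of those called lower, 57.5% were below 0 in all 3, against 14.8%.

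The comparison with gcn2 after herbicide uses the same wild-type herbicide gradients. No probe set passed limma's test of the difference (smallest adjusted p = 1.00), and 535 were at an unadjusted p under 0.05, or 2.35%. With only the 6 gradients compared, 2 passed. Of the probe sets called higher in wild type, 81.2% were above 0 in all 3 gcn2 herbicide gradients, against 25.1% of all tested. Of those called lower, 83.3% were below 0 in all 3, against 33.1%. These gcn2 arrays took no part in the wild-type calls. The 3 genes with the smallest p were AT2G27140, AT4G00780 and the dehydrin gene LTI30. In wild type they had 0.74, 0.70 and 0.31, and in gcn2 -0.91, -0.34 and -0.84. The signs were opposite, but the differences of -1.65 ± 0.34, -1.03 ± 0.23 and -1.15 ± 0.28 (SE) did not pass the adjustment. AT1G04800, the largest excess in wild type, had 0.95 ± 1.22 in mock and 0.50 ± 0.46 in gcn2 after herbicide (SD, n = 3).

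The slope on gene span was 0.17 ± 0.10 in wild-type mock, 0.20 ± 0.03 in gcn2 herbicide and 0.18 ± 0.05 in gcn2 mock (SD, n = 3). An exact two-sided permutation test over gradients gave p = 0.7, 0.9 and 0.7 against wild-type herbicide, each 0.9 after Benjamini-Hochberg adjustment over the 3 comparisons. With 3 against 3 gradients the smallest p possible is 0.1, so this design cannot pass 0.05. The lists had the same sign in gcn2 after herbicide for ATG8 (median -1.20), glutaredoxins (-1.10), upstream frames (-0.66) and synthetases (0.52). In wild-type mock these medians were -0.70, -1.06, -0.98 and 0.72.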

How the data were processed

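The authors deposited log2 signals from Affymetrix ATH1 arrays; the submitters' processing notes name RMA, MAS5 and the affy package, with no role or version, so joint normalization of all 48 arrays is unknown. The number of arrays limits the precision. Each array was centred on its median over 22746 probe sets, with no filter on low values. LP minus SP per gradient was tested against 0 with limma 3.58.1 in R 4.3.3 (lmFit, eBayes, prior df 20.2), with Benjamini-Hochberg adjustment. With so many prior df against 3 gradients, spreads are nearly shared and calls follow the size of the difference. Differences between groups were fitted over all 12 gradients. Tested on simulated data, the fits returned the mean size of the changes put in but missed many of them and most of the smaller ones. The fit of herbicide against mock also called some unchanged probe sets. The simulation changed 200 probe sets, far fewer than were called here, and gave each probe set its own observed spread. Its share of missed changes therefore does not measure the share missed in these data.

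The pairing comes from the gradients: deviations of same-numbered LP and SP arrays from their group means correlated at 0.42, 0.51 and 0.56. Between groups another measure was used, deviations of LP minus SP. For the same replicate number, wild-type herbicide and wild-type mock correlated at 0.02, -0.05 and -0.15. With gcn2 after herbicide the values were -0.04, 0.11 and 0.03, and gcn2 mock was not compared. The subtraction cancels what LP and SP arrays share, so a batch common to same-numbered gradients was not tested.

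Genes were named from the platform annotation and RefSeq TAIR10.1 (13436 probe sets matched), and lists were written by locus from general knowledge. Only members with a probe set of 1 named gene were counted, in most lists a part of the loci listed. These were 83 of 136 loci for 60S, 49 of 96 for 40S and 45 of 76 for kinesins and myosins. They were 16 of 49 for initiation factors, 10 of 40 for plastid ribosomal proteins and 6 of 42 for receptor kinases. Members and lists were chosen with earlier results of these data known. The named genes were the 10 largest differences each way among probe sets with 1 gene, adjusted p under 0.05, non-overlapping groups and a level above the lower quartile, plus up to 2 per direction and list, the 8 herbicide-induced genes and the 3 smallest p of each difference test; others in the text were chosen after their values were seen. A fit on protein length was planned; gene span replaced it, since protein lengths were not used here. GCN2 itself, the catalytic acetolactate synthase gene, and lists of ABC transporters, cellulose synthases and rubisco small subunits were not analysed here. Spearman correlations and the exact permutation test used scipy 1.17.1.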

Additional observations from a re-analysis of the deposited data

How the results depend on the processing

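The number of probe sets past the threshold moved from 8659 to 4809 without the replicate block, which drops the pairing by gradient, and to 4364 with the spread of all 12 gradients. Leaving out 1 gradient gave 6444 to 7625. Quantile normalization (8538), no centring (8683), a variance trend (8706) and leaving out dim probe sets (8642 of 17059) changed it little. Of the called probe sets, 47.6% were higher in LP, 54.5% without centring and 52.4% after quantile normalization. Of 80 single genes, 0 changed sign under these settings, 17 lost their call without the replicate block and 18 with the spread of all 12 gradients. Of 21 list medians, 4 changed sign: light-harvesting (0.019 to -0.082 without replicate 3), mitochondrion-encoded (0.02 to -0.053 without replicate 2 and -0.021 without replicate 3), plastid ribosomal protein (-0.119 to 0.041 after quantile normalization) and initiation factor (-0.13 to 0.022 without replicate 3). The test of herbicide against mock in wild type had 1 call without wild-type mock replicate 2 and 0 under the other settings, and 0 to 1 when leaving out 1 gradient. The test of gcn2 against wild type had 2 with only the 6 gradients compared and 0 otherwise. A replicate block between gradients left 0 calls in both. The slope on span was 0.1879 after quantile normalization, 0.3252 without dim probe sets and 0.2081 without organelle genes. Leaving out both wild-type gradients of replicate 3 was added after seeing the data. Array signal has a floor: the lower quartile of the 6 arrays was 3.45 to 3.66, and differences of probe sets there are compressed. The cause of these changes was not tested.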

Other observations

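Probe sets annotated to pseudogenes were mostly dim, with a median LP level of 2.69, and few were called. Of 923, 0.98% were higher in LP and 3.14% lower.

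AT1G04800, the largest named excess in LP (1.56), lies next to AT1G04810 of the 19S proteasome particle (1.16) on chromosome 1 in the RefSeq annotation, with 0 genes between them, and their spans do not overlap.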
